A study of Mus musculus with 11 samples.

Results

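The genes described here are the kinase gene Cdc7 and 8 partners that turn a loaded replication helicase into an active one: Dbf4, Cdc45, Gins1, Gins2, Gins3, Gins4, Topbp1 and Recql4. They were chosen by gene name, and all 9 were found among the 47517 rows of the count table and passed the filter on low counts, which left 15821 genes. RNA-seq was made from forelimb buds of C57BL/6 mouse embryos at E10.5. The 6 mutant embryos were Gmnn f/f; Prx-Cre and the 5 controls were Gmnn +/f; Prx-Cre, so that all 11 carried the Cre transgene and at least 1 floxed allele of Gmnn. Gmnn encodes Geminin, which binds the licensing factor Cdt1, and Prx-Cre drives recombination in limb bud mesenchyme, so that ectoderm, blood and vessel cells of the bud are not its target. The embryos came from 4 litters, each with both genotypes. By litter, called A to D, controls 1 and 2 were littermates of mutants 1 and 2 (A), control 3 of mutant 6 (B), control 4 of mutant 5 (C), and control 5 of mutants 3 and 4 (D).

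Replication origins are licensed in G1, when the Mcm2-7 ring is loaded onto DNA in an inactive form. In S phase the kinase Cdc7, which is activated by its regulatory subunit Dbf4, phosphorylates Mcm proteins. Cyclin-dependent kinase acts in parallel through Ticrr and Topbp1. Cdc45 and the 4 GINS proteins then join the ring to form the working helicase, with Recql4 needed for the step in vertebrate cells. Most of these genes are known as E2F targets that are transcribed as cells enter S phase.

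Promoter sequences from RefSeq (GRCm38.p6) were at hand for 5 of the 9 genes, namely Cdc7, Dbf4, Cdc45, Gins3 and Topbp1. They are shown for the kinase and its activating subunit, whose fold changes with genotype differed as described below, and for the 2 genes with a full E2F match. Each runs from 250 bases before to 50 bases after a transcription start, 5′ to 3′ on the strand of the gene. Capitals mark the words searched on both strands: the E2F site in its 8-letter forms TTTCCCGC, TTTCGCGC, TTTGCCGC and TTTGGCGC, the same without the first T, the cell cycle element TTTGAA, and CCAAT.
Cdc7 promoter, chr5:106964072-106964371, plus strand: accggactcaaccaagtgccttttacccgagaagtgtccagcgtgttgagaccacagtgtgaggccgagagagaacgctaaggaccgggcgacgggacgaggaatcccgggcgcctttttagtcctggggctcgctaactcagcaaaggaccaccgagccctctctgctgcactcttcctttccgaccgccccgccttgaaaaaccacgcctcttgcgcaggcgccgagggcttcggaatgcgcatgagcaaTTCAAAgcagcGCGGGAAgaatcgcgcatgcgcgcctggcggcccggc
Dbf4 promoter, chr5:8422667-8422966, minus strand: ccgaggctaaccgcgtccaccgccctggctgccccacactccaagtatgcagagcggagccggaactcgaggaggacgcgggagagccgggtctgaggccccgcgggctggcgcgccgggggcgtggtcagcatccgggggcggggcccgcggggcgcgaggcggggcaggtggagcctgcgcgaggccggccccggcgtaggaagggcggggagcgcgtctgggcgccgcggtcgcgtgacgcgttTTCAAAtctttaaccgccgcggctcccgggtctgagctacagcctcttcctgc
Gins3 promoter, chr8:95633309-95633608, plus strand: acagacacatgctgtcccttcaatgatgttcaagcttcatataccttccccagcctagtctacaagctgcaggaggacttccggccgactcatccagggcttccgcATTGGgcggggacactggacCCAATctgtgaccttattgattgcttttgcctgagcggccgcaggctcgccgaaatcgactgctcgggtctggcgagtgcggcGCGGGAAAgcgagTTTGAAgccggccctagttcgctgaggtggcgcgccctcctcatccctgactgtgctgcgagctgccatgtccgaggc
Topbp1 promoter, chr9:103305077-103305376, plus strand: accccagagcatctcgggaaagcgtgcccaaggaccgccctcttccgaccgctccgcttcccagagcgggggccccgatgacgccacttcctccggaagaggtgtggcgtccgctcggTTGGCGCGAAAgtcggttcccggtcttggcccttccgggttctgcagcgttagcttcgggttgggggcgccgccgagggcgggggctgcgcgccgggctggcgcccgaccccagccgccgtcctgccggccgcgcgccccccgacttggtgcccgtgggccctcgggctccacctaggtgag

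Full E2F words lay 41 bases before the start of Gins3 and 129 bases before that of Topbp1. Among all 32851 promoters of this length, 2.26% held such a word. Cdc7 had a 7-letter form 13 bases after the start shown, and 9.57% of promoters held a 7-letter form. These 7-letter forms lie inside every 8-letter word, so the counts overlap. The word TTTGAA lay 3 bases before the start of Dbf4, 2 bases after that of Cdc7 and 28 bases before that of Gins3. It was also in the Cdc45 promoter, and 17.9% of all promoters held it. CCAAT was in the promoters of Gins3 and Cdc45 and in 37.4% of all. A second Cdc7 start in the same table, not printed, had 2 such 7-letter matches before it, 1 of them the site already shown.

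The libraries held 14721181 to 19733288 counts. Limb mesenchyme markers (9 genes) summed to 701.5 to 961.3 CPM (counts scaled to a common library total) in controls and 732.4 to 827.0 in mutants. The forelimb marker Tbx5 stood at 75.2 to 122.8 CPM in controls and 64.8 to 83.6 CPM in mutants, and it did not pass the test below. The hindlimb markers Tbx4 and Pitx1 together stood at 0.840 to 6.79 CPM over all libraries. Of the marker lists for ectoderm, endothelium, red cells, macrophages, muscle precursors and neural crest, none had a gene past the test below, and 1 mesenchyme marker, Lhx9, was lower. No gene of any list was at 0 in all libraries. Red cell markers summed to 12980 to 33350 CPM in controls and 16260 to 56010 in mutants, the highest being mutant 2, and macrophage markers to 2.10 to 23.4 and 6.53 to 31.2 CPM. In bulk RNA, fewer cells of a type and less RNA per cell cannot be told apart.

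Libraries of both groups stood apart in ways the labels do not give. A T-run index was taken as the mean over genes, weighted by CPM, of the longest run of T bases in any transcript of the gene. It is computed from the same counts as the levels. The index lay between 10.3 and 10.8 for controls 1 to 4 and at 9.75 for control 5. It was 10.2 for mutant 5 and between 9.21 and 9.87 for the remaining mutants. Control 5 thus lay among the mutants and mutant 5 close to the controls. Mutant 5 had 8 Xist and 4 Y-linked reads, where each other library had either at least 939 Xist reads or at least 1667 Y-linked reads. Values with this index in the model, and without these 2 libraries together, are given for each of the 9 genes and for the called genes of the lists. Without these 2 libraries, litters C and D each hold a single genotype. With litter in the model, the genotype difference then comes from litters A and B alone. For Gmnn itself, the targeted gene, controls averaged 179.6 ± 40.2 CPM (SD, n = 5), mutants averaged 115.3 ± 16.1 CPM (SD, n = 6), and the groups did not overlap. Its log2 fold change was -0.67 (edgeR adjusted p 0.0291), and it was -1.05 with the index in the model (edgeR adjusted p 0.000296) and -0.53 without control 5 and mutant 5 (edgeR adjusted p 0.0485).

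Cdc7 (ENSMUSG00000029283.17; chromosome 5, 106964322 to 106984432, plus strand, mm10) fell in the mutants, and it was the only member past the threshold. Controls 1 to 5 had 85.6, 71.9, 86.2, 85.2 and 57.1 CPM of Cdc7. Mutants 1 to 6 had 48.8, 38.8, 44.4, 50.9, 72.4 and 51.9 CPM. The groups overlapped through the same 2 libraries, since control 5 was the lowest control, mutant 5 the highest mutant, and mutant 5 lay above both controls 5 and 2. Controls averaged 77.2 ± 12.7 CPM (SD, n = 5) and mutants 51.2 ± 11.4 CPM (SD, n = 6), a fold of 0.675. The log2 fold change was -0.57 (95% interval -0.82 to -0.32; edgeR's quasi-likelihood test blocked on litter, Benjamini-Hochberg adjusted p 0.0406). Mutants were lower in each of the 4 litters, by -0.85 in litter A, -0.73 in litter B, -0.23 in litter C and -0.26 in litter D on the log2 scale. So the differences were largest in litters A and B, and the 2 small ones involve mutant 5 and control 5. A test of genotype by litter gave an unadjusted p of 0.0852 for Cdc7 and an adjusted p of 0.950 (edgeR quasi-likelihood test, 3 residual degrees of freedom).

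**Figure D1:**
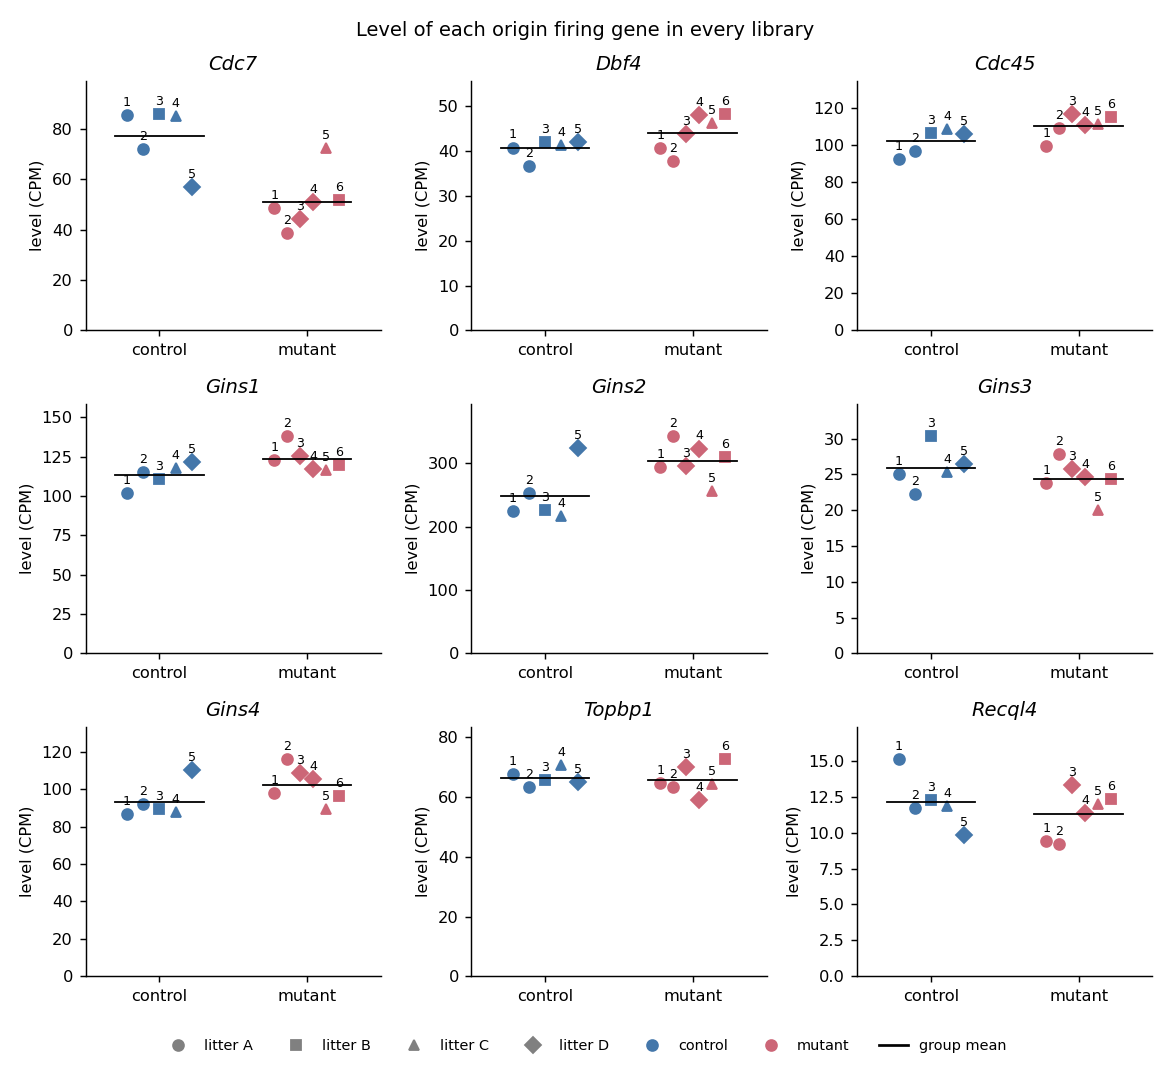
Level of each of the 9 genes in CPM (vertical axes, from 0) in the 5 control and 6 mutant libraries. Points are libraries, numbered by replicate, with shape for litter and colour for genotype, and lines are group means. Cdc7 has a lower mutant mean, with control 5 and mutant 5 reaching into the other group.

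The call for Cdc7 rested on most libraries. It was kept without control 5 (adjusted p 0.0235) or mutant 2 (0.0407) and lost without any of the other 9, with adjusted p of 0.0569 to 0.179 in edgeR. With no replicate block the adjusted p was 0.0545 in edgeR. The direction held in all 11 fits without 1 library, with log2 fold changes of -0.66 to -0.48. These fits are not 11 separate checks. Controls 3, 4 and 5 and mutants 5 and 6 are each the only library of their genotype in a litter. Leaving out any of them takes its litter out of the genotype difference. The fold changes were then close to those without the whole litter, -0.52, -0.64 and -0.66 for litters B, C and D. Without control 5 and mutant 5 together, a choice made after seeing the data, only litters A and B hold both genotypes. These had the largest Cdc7 differences. In that fit the fold change was -0.82 (edgeR adjusted p 0.00871). With the T-run index in the model it was -0.15 (95% interval -0.37 to 0.06, edgeR adjusted p 0.615). The longest T run in the Cdc7 transcripts is 10 bases, and the median over 15291 genes is 7. How a gene's own T run relates to its change with the index was not tested.

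**Figure D2:**
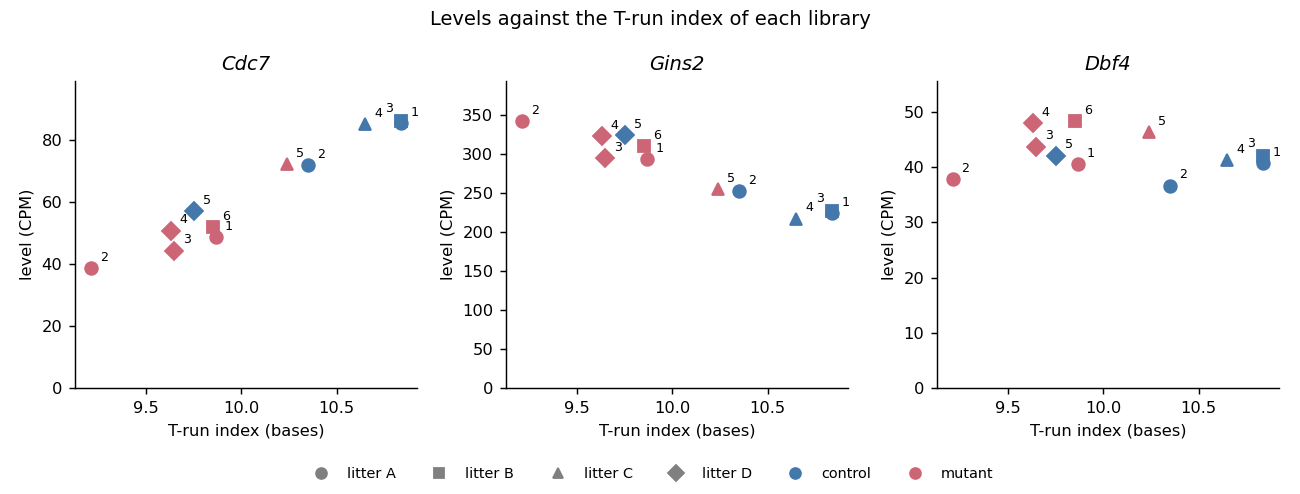
Level of Cdc7, Gins2 and Dbf4 in CPM (vertical axes) against the T-run index of each library in bases (horizontal axes, not from 0). Points are the 11 libraries with shape for litter, colour for genotype and the replicate number beside each; Cdc7 is lowest and Gins2 highest in mutant 2, which has the lowest index (9.21).

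The plot of levels against the index shows that Cdc7 followed it across libraries of both genotypes. Control 5, at an index of 9.75, had a Cdc7 level of 57.1 CPM, below the other 4 controls and above each of the 4 mutants nearest to it in index, which lay between 9.63 and 9.87 and had 44.4 to 51.9 CPM. Mutant 5, at 10.2, had 72.4 CPM, near the 71.9 CPM of control 2 at 10.3. Genotype and index are largely parallel in these 11 libraries, and the part of the index in the Cdc7 difference was not tested beyond the fit given.

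Dbf4 (ENSMUSG00000002297.16; chromosome 5, 8396973 to 8422716, minus strand), a regulatory subunit that activates Cdc7, did not share the change. Its level was 40.7, 36.6, 42.0, 41.3 and 42.0 CPM in controls 1 to 5 and 40.5, 37.8, 43.7, 47.9, 46.3 and 48.3 CPM in mutants 1 to 6. The 4 highest values are of mutants and the lowest is of control 2. The log2 fold change was 0.11 (95% interval -0.05 to 0.26, edgeR adjusted p 0.422), with mutants higher in all 4 litters. With the T-run index in the model the fold change of Dbf4 was 0.20 (95% interval -0.023 to 0.42, edgeR adjusted p 0.523).

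Read counts of Cdc7 and Dbf4 were also compared within each library, which removes library scaling. Cdc7 CPM was 2.10, 1.97, 2.05, 2.07 and 1.36 times Dbf4 CPM in controls 1 to 5. In mutants 1 to 6 it was 1.20, 1.03, 1.02, 1.06, 1.57 and 1.08 times. Outside mutant 5 no mutant reached the lowest control. On the log2 scale the ratio was 0.91 ± 0.27 (SD, n = 5) in controls and 0.19 ± 0.24 (SD, n = 6) in mutants. The litter-adjusted difference was -0.67 (exact two-sided permutation within litters, 72 arrangements, p 0.0139, the smallest the design allows). Cdc7 alone, tested the same way, had an exact p of 0.0278, and with adjustment over these 2 tests both were 0.0278. The tests were chosen with the Cdc7 call known, and Dbf4 differed little. Both therefore largely repeat that call and are not independent evidence. The ratio was lower in the mutants of every litter, by -0.87, -0.93, -0.40 and -0.38 in litters A to D. These counts come from transcripts of different length, so the ratio is of reads and not of molecules.

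**Figure D3:**
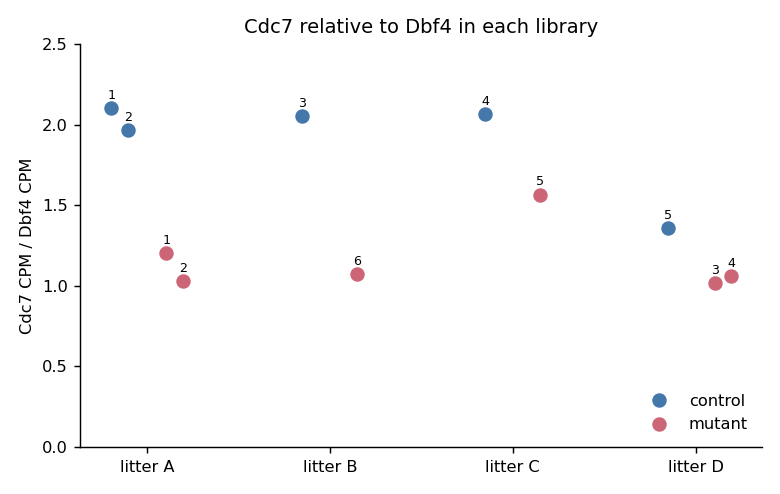
Cdc7 CPM divided by Dbf4 CPM (vertical axis, from 0) in each library, grouped by litter, with controls to the left in blue, mutants to the right in red and replicate numbers beside the points. In each litter the mutants lie below the controls, and the gap is smallest in litters C and D.

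Cdc45 (chromosome 16, 18780447 to 18811987, minus strand), the protein that bridges GINS and the Mcm ring, differed little. It was 92.6, 96.8, 106.7, 108.6 and 105.9 CPM in controls 1 to 5 and ran from 99.7 through a median of 111.3 to 117.0 CPM in mutants. The groups overlapped, and mutants were higher in all 4 litters. Its log2 fold change was 0.11 (95% interval -0.02 to 0.24, edgeR adjusted p 0.325). A stretch of 9.3% of its exon bases is shared with Ufd1l, where reads are dropped by the counting.

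None of the 4 GINS subunits passed the test. Gins2 (chromosome 8, 120578633 to 120589304, minus strand) came nearest. It was 224.8, 252.6, 226.7, 217.4 and 324.4 CPM in controls 1 to 5 and 293.8, 342.6, 295.3, 323.6, 255.7 and 310.7 CPM in mutants 1 to 6. Control 5 was again among the mutants and mutant 5 next to control 2, here in the opposite sense to Cdc7. The log2 fold change was 0.26 (95% interval 0.07 to 0.46; edgeR unadjusted p 0.0111, adjusted p 0.119). It passed without control 5 (0.38, edgeR adjusted p 0.0287) and without control 5 and mutant 5 together (0.42, edgeR adjusted p 0.0363). With the T-run index in the model it was -0.027 (edgeR adjusted p 0.927). By the deposited exon coordinates, 67.3% of the bases of Gins2 are shared with exons of Gse1, so the count comes from the remaining 1339 of 4097 bases.

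Gins1 (chromosome 2, 150905400 to 150931280, plus strand) was 101.7, 115.4, 110.6, 117.9 and 121.8 CPM in controls and 116.8 to 137.9 CPM in mutants (median 121.6), with the highest value in mutant 2. Its log2 fold change was 0.12 (95% interval -0.04 to 0.28, edgeR adjusted p 0.380). Gins4 (chromosome 8, 23226610 to 23237668, minus strand) was 86.7, 91.8, 89.3, 87.9 and 110.1 CPM in controls and 89.4 to 115.9 CPM in mutants (median 101.6). Control 5 was above 5 of the 6 mutants. The log2 fold change of Gins4 was 0.11 (95% interval -0.05 to 0.27, edgeR adjusted p 0.412). For both genes the sign turned with the T-run index in the model, to -0.075 for Gins1 and -0.089 for Gins4.

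Gins3 (chromosome 8, 95633559 to 95645059, plus strand) had the only negative fold change among the subunits. It was 25.0, 22.3, 30.3, 25.3 and 26.4 CPM in controls and 20.1 to 27.9 CPM in mutants (median 24.6), and mutants were lower in 3 of 4 litters. This gave a log2 fold change of -0.09 (95% interval -0.30 to 0.12, edgeR adjusted p 0.651). The GINS proteins work as a single complex, and per length, as given below, Gins3 had the lowest level of the 4 genes with each of the 3 lengths tried.

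Topbp1 (chromosome 9, 103305215 to 103350428, plus strand), the scaffold that brings GINS to the loaded ring and also activates the checkpoint kinase ATR, was the member with the smallest difference. It was 67.9, 63.3, 65.8, 70.8 and 65.1 CPM in controls and 59.2 to 72.6 CPM in mutants (median 64.5). With a log2 fold change of -0.01 (95% interval -0.17 to 0.14, edgeR adjusted p 0.939) it did not pass the test, and with upper-quartile scaling the value was 0.025. Recql4 (chromosome 15, 76703553 to 76710559, minus strand), a helicase of the RecQ family, had the fewest reads, 139 to 270 per library. It was 15.1, 11.7, 12.3, 11.9 and 9.81 CPM in controls and 9.20 to 13.3 CPM in mutants (median 11.7). Its log2 fold change was -0.12 (95% interval -0.43 to 0.20, edgeR adjusted p 0.707), the widest interval of the 9. Litters did not share a direction for Recql4, with -0.51 in litter A and 0.32 in litter D. It shares 10.8% of its exon bases with Mfsd3.

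**Figure D4:**
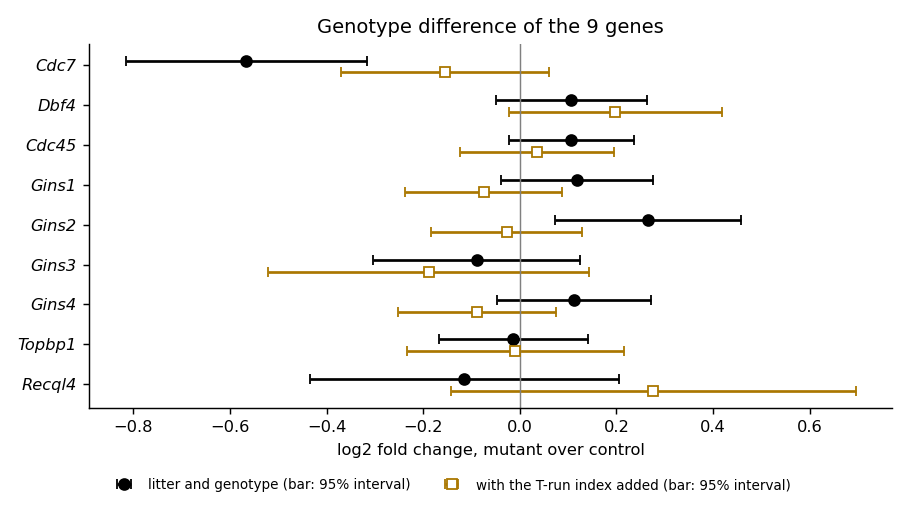
Log2 fold change of mutant over control (horizontal axis) for the 9 genes, from the model with litter and genotype (filled circles) and with the T-run index added (open squares), each with its 95% interval. Cdc7 at -0.57 and Gins2 at 0.26 are the intervals clear of 0 in the first model, and in the second both intervals include 0.

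Among the remaining values with the T-run index in the model, Cdc45 was at 0.036, Gins3 at -0.19, Topbp1 at -0.0096 and Recql4 at 0.28 on the log2 scale, and no member passed the test. Without control 5 and mutant 5 together, Dbf4 was at 0.068, Cdc45 at 0.12, Gins1 and Gins4 each at 0.20, Gins3 at -0.031, Topbp1 at 0.014 and Recql4 at -0.36, with edgeR adjusted p of 0.217 to 0.955. So Gins1, Gins2, Gins4, Topbp1 and Recql4 took opposite signs in these 2 fits. Cdc7 and Gins2 were the only members called in the second.

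Counted together, 1 of the 9 members was called at an adjusted p under 0.05, against 2.18% of all genes tested (1.48% lower and 0.702% higher). At an unadjusted p under 0.05 there were 2 members, where 21.4% of all genes had such a p. Mutants were lower in each of the 4 litters for Cdc7 alone (13.5% of all genes) and higher for Dbf4 and Cdc45 (12.6% of all genes). No member had groups that did not overlap, which 1.3% of genes had with all mutants lower and 1.29% with all mutants higher. The median log2 fold change was 0.11 over the members and 0.00 over all genes. No member had a genotype by litter interaction at an adjusted p under 0.05 (smallest 0.950, edgeR quasi-likelihood test), as for all genes, where 605 had an unadjusted p under 0.05.

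Compared per length of exon, the members kept a wide order of levels in controls. Gins1 stood at 74.9 ± 5.09, Gins4 at 68.3 ± 7.07 and Gins2 at 60.8 ± 10.8 CPM per kilobase (SD, n = 5). With this length these neighbours did not differ beyond their spread, but it includes the Gins2 bases shared with Gse1, where reads are dropped. Cdc45 followed at 45.3 ± 3.11 and Cdc7 at 18.5 ± 3.04 CPM per kilobase. Gins3 was at 10.7 ± 1.21, Topbp1 at 5.98 ± 0.258, Dbf4 at 4.64 ± 0.260 and Recql4 at 3.10 ± 0.485 CPM per kilobase. In mutants Cdc7 was at 12.2 ± 2.74, near the 10.1 ± 1.07 CPM per kilobase of Gins3 (SD, n = 6). The length used moved the control level of 5 genes by more than 1 SD. By the longest transcript, Dbf4 was at 16.2 and Topbp1 at 12.7 CPM per kilobase in controls, both above Gins3 at 10.3, which went from rank 6 to 8. Gins1 was then at 104.4 ± 7.10, apart from Gins4 at 69.1 ± 7.15 and Gins2 at 63.9 ± 11.3 CPM per kilobase (SD, n = 5). By exon bases of no other gene, Gins2 was at 186.1 ± 32.9 CPM per kilobase and the highest of all, ahead of Gins1 and Gins4, and Cdc45 was at 49.98 CPM per kilobase. Cdc45 and Cdc7 kept ranks 4 and 5 and Recql4 rank 9 with each of the 3 lengths.

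Across the 11 libraries, Cdc7 and the GINS genes other than Gins3 varied in opposite senses. The Pearson correlation of log2 CPM with Cdc7 was -0.924 for Gins2, -0.893 for Gins4 and -0.832 for Gins1. It was -0.447 for Cdc45, 0.552 for Recql4, 0.168 for Topbp1, -0.0975 for Dbf4 and -0.0984 for Gins3. These are descriptions over libraries that share genotype, litter and the T-run index, and carry no p. Among 8542 other genes with a mean of at least 10 CPM, the 5 most like Cdc7 were A530041M06Rik (r 0.990), Zfp207 (0.988), Micu3 (0.988), Rbm15 (0.987) and 4933415A04Rik (0.986). Their log2 fold changes were -0.74, -0.29, -0.84, -1.27 and -1.12 in that order. The longest T runs in their transcripts were 21, 24, 25, 12 and 21 bases, where 3.47% of all genes with a value have a run of more than 20 bases. That share includes genes under 10 CPM, from which these 5 were not drawn.

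Over all genes tested, 0.702% were higher and 1.48% were lower past the threshold. Of the 17 origin firing partners outside the members, 6 had an edgeR unadjusted p under 0.05, beside 21.4% of all genes. The median log2 fold change of the list was -0.02. Past the threshold, 1 partner was higher and 1 was lower. Both are E-type cyclins, which activate Cdk2 at the entry to S phase. Ccne1 rose by 0.56 on the log2 scale (SE 0.10, edgeR adjusted p 0.0353), from a control mean of 73.5 ± 16.4 CPM (SD, n = 5) to a mutant mean of 109.5 ± 6.76 CPM (SD, n = 6), and every mutant lay above every control. Ccne2 changed by -0.47 (SE 0.08, edgeR adjusted p 0.0291), from 70.6 ± 7.80 CPM (SD, n = 5) in controls to 50.1 ± 7.47 CPM in mutants (SD, n = 6). The 2 cyclins thus moved in opposite directions, each in all 4 litters. With 1 library left out, Ccne1 ranged from 0.48 to 0.71 and passed in 3 of 11 edgeR fits (without control 5, mutant 2 or mutant 3), and Ccne2 ranged from -0.51 to -0.43 and passed in 2 (without control 5 or mutant 2). With the T-run index in the model they were at 0.36 and -0.27 and did not pass (edgeR adjusted p 0.388 and 0.363). With no replicate block both had an edgeR adjusted p of 0.0501, and without control 5 and mutant 5 together they were at 0.71 and -0.59 and passed (0.0077 and 0.0135). The number of partners called was 5 with DESeq2 and without a filter on low counts, 4 without control 5, 1 without mutant 3, and 0 with no replicate block, with the index, without litters A, B or C and without each of controls 1 to 4 and mutants 1, 4, 5 and 6. Ccne1 carries a T run of 25 bases and Ccne2 has none over 6. The Cdk2 gene itself had a log2 fold change of 0.03 and Ticrr, the Cdk substrate that binds Topbp1, -0.03.

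**Figure D5:**
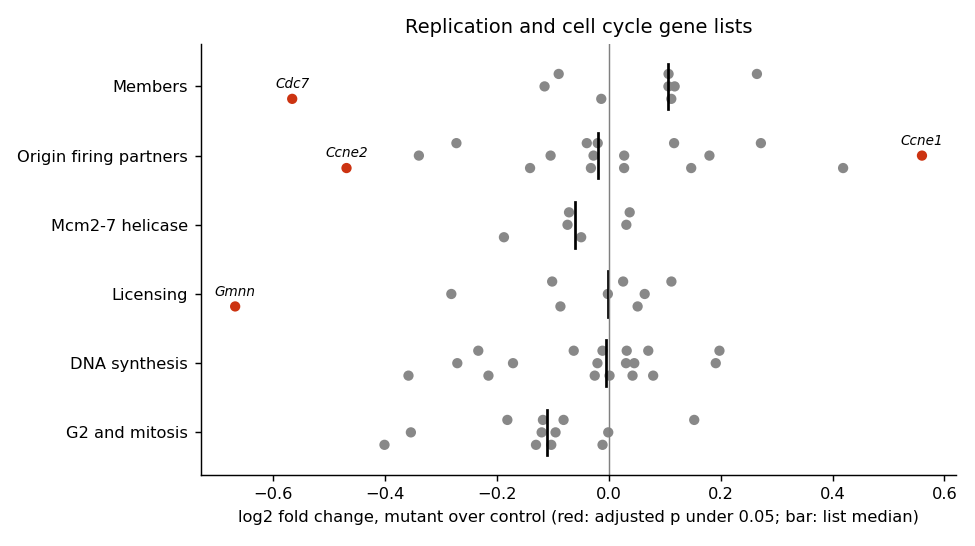
Log2 fold change of mutant over control (horizontal axis) for each gene of the members and of the 5 replication and cell cycle lists (rows). Red points with names are past an adjusted p of 0.05, grey points are not, and bars are list medians, which run from -0.11 to 0.11.

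The Mcm2-7 helicase that Cdc7 phosphorylates had 0 of 6 genes past the threshold in edgeR and 1 with an unadjusted p under 0.05. Over all genes tested these shares were 2.18% and 21.4%. The median log2 fold change of the 6 genes was -0.06, and the number called stayed at 0 in every alternative fit, DESeq2 included. The 2 Mcm genes of smallest p were Mcm4 (-0.19, edgeR adjusted p 0.177) and Mcm7 (-0.07, edgeR adjusted p 0.483). Among 9 licensing genes 2 had an edgeR unadjusted p under 0.05, and only Gmnn passed the threshold, with the values given above. It passed in 3 of the 11 fits without 1 library and not with no replicate block (edgeR adjusted p 0.0501), and the list's count reached 2 without a filter, with the filter of 1 CPM, with DESeq2, without control 5 and without control 5 and mutant 5 together. The next gene, the origin recognition subunit Orc3, was at -0.28 (edgeR adjusted p 0.0555). DNA synthesis genes gave 0 of 18 in edgeR, with 5 at an unadjusted p under 0.05, beside 21.4% of all genes. They were led by the polymerase delta subunit Pold3 (-0.27, edgeR adjusted p 0.0682) and the single-strand binding protein Rpa1 (-0.23, edgeR adjusted p 0.0855). The count was 1 without a filter and 2 with DESeq2, without control 5 and without control 5 and mutant 5 together. Genes of G2 and mitosis gave 0 of 12 in edgeR, with 3 at an unadjusted p under 0.05, again beside 21.4% of all genes. The spindle checkpoint genes Bub1b (-0.35, edgeR adjusted p 0.0520) and Bub1 (-0.40, edgeR adjusted p 0.0546) were nearest to the threshold. The count was 1 with RLE scaling, with limma-voom, without mitochondrial, haemoglobin and ribosomal RNA genes and without control 5 and mutant 5 together. It was 2 without a filter, with the filter of 1 CPM, with DESeq2, without control 5 and without mutant 2. Of these 12 genes, 11 had a negative fold change, against 7799 of 15821 over all genes.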

How the data were processed

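RNA was taken from forelimb buds and libraries were made after ribosomal RNA depletion, per the labels' protocols. The authors deposited raw read counts per gene name, made with featureCounts 1.4.6-p4 on mm10 with GENCODE M9 at a mapping quality of at least 10, per the file headers. STAR 2.5.4b is named in the submitters' processing notes. The header command sets no option for strand or for reads over exons of 2 genes, so that reads were counted without strand and shared reads were dropped. The design text speaks of 6 pairs, and 11 libraries were analysed here. Litter, from the titles, served as the block. Deviations from group means were correlated between each control and each mutant, and pairs within a genotype were not used. The median was 0.13 over 8 such pairs of the same litter and -0.0199 over 22 of different litters.

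Counts were analysed with edgeR 4.0.16, limma 3.58.1 and DESeq2 1.42.0 in R 4.3.3. Genes passed filterByExpr, libraries were TMM-scaled, and genotype was tested by glmQLFTest on a model with litter, with Benjamini-Hochberg adjustment over all 15821 genes and a threshold of 0.05. CPM use TMM-scaled totals, and log2 CPM a prior count of 2. The 95% intervals come from the same fit. The script was tested on simulated data. Exon overlaps come from the coordinates in the deposited table, and T runs from GENCODE M21 transcripts on the same genome. No 2 libraries of a group were alike within sampling noise (lowest chi-square per degree of freedom 6.82). Labels do not say more of how replicates were made than that embryos differ, so p-values measure the spread between these samples.

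The members, lists and tests were chosen with earlier results of these data known. The promoter words were settled after the promoter sequences had been seen. The text names all 9 members, list genes past the threshold and the 2 of smallest p per list, the 5 genes most like Cdc7, and Gmnn. Cdk2 and Ticrr were named after their values were seen, as was Lhx9. Alternatives were RLE and upper-quartile scaling, 2 filters, DESeq2, limma-voom, no block, each library or litter left out, removal of ribosomal RNA, haemoglobin and mitochondrial genes, the T-run index as a covariate, other lengths, and a prior count of 0.5. Leaving out a litter's only control or only mutant also takes that litter out of the genotype difference.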

Additional observations from a re-analysis of the deposited data

Results flagged for a closer look

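Of 48 comparisons of the highest or lowest library with the rest of its group, over the 9 members, Gmnn, the Cdc7 to Dbf4 ratio and the T-run index, 3 had a library too far from the others by Dixon's criterion. Chance flags about 1 in 20 groups, and 24 groups were examined. Dbf4 was lowest in control 2, at 5.20 log2 CPM, where the next control had 5.35 and the highest 5.40. Gins4 was highest in control 5, at 6.78 log2 CPM, where the next control had 6.52. The log2 ratio of Cdc7 to Dbf4 was lowest in control 5, at 0.44, where the other controls had 0.97 to 1.07. Control 5 is the control with the lowest T-run index, and the part of the index in these values was not tested.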

How the results depend on the processing

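The number of genes called moved from 345 to 1566 without a filter on low counts, 550 with a filter of 1 CPM in 5 libraries, 1194 with DESeq2, 16 with no replicate block, 3 with the T-run index, 9, 3, 1 and 148 without litters A to D, and 782 without control 5 and mutant 5. It was 1 to 850 with 1 library left out. Members called were 2 (Cdc7 and Gins2) without a filter and without control 5 and mutant 5, 0 with no replicate block, with the T-run index and without litters A, B or C, and 0 to 2 with 1 library left out. Cdc7 kept its direction in all fits and lost the call with no replicate block (-0.59, adjusted p 0.0545), with the T-run index (-0.15) and without litters A, B and C (-0.40, -0.52 and -0.64), and ran from -0.66 to -0.48 with 1 library left out. The ratio to Dbf4 was -0.55, -0.77 and -0.89 without litter A, litter D, and control 5 and mutant 5; there the exact p was 0.0833, 0.0833 and 0.167, the smallest the remaining arrangements allow. It was -0.77 to -0.61 with 1 library left out, with p 0.0833, again the smallest possible, without control 5. Signs turned for Topbp1 (0.025 with upper-quartile scaling, 0.018 without litter C, 0.014 without control 5 and mutant 5, -0.048 to 0.016 with 1 library left out), Recql4 (0.13 without litter A, 0.28 with the T-run index), and, with the T-run index, Gins1 (-0.075), Gins2 (-0.027) and Gins4 (-0.089). Of the 5 genes most like Cdc7, 3 to 5 stayed with 1 library left out. The causes were not tested. Upper-quartile scaling made 43.1% of calls higher in mutants, in place of 32.2%, and moved the median of all genes by less than 0.1 log2 units, to 0.04. Removing 1 library from litter B or C leaves no interaction to fit there, so the interaction was not run without single libraries.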
